A study of Homo sapiens with 24 samples.

Results

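The genes that build ribosomes and their RNA polymerase I are followed here across siRNA knockdowns and construct transfections in a pair of human cell lines. The members are 60 protein-coding genes listed by symbol, and each was found by the GENCODE 29 name of its gene ID. All 60 were measured and passed the filter on low counts in both lines, among 17684 genes tested in LN-229 and 19376 in the knockout line. By role they are 10 genes of RNA polymerase I and its initiation factors, 5 abundant nucleolar proteins, 6 core proteins of the small nucleolar ribonucleoproteins (snoRNPs), 13 genes of the small-subunit processome, 8 genes of pre-40S maturation and 18 genes of 60S assembly.

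RNA was sequenced from 24 libraries, in 8 groups of 3. LN-229 is an established human glioblastoma line, used here as wild type. The transfected siRNAs were siControl, a control oligo; siZFX, against the zinc finger transcription factor ZFX; siZNF593, against the zinc finger protein ZNF593; or siZFX and siZNF593 at once (double). The double knockdown is compared with siControl_2, a further control set under the same treatment label. The other line is 293T, a human embryonic kidney line, carrying knockouts of ZFX and of its paralog ZNF711 in every library (DKO cells). DKO cells received the empty vector pCMV6-Entry (pCMV6), wild-type ZFX with a FLAG tag (wtZFX) or another FLAG-tagged construct of it, ZFX12_13, whose alteration the labels do not describe. The study calls the 3 libraries of a group biological replicates without saying whether they came from separate cultures, so the p-values measure the spread between these libraries, which may be partly technical. The labels do not say whether the DKO cells are 1 clone.

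Ribosome biogenesis starts in the nucleolus. RNA polymerase I, brought to the ribosomal DNA by UBTF, the selectivity factor 1 complex (TAF1B, TAF1C and TAF1D among its subunits) and RRN3, makes the long precursor of the ribosomal RNAs. Box C/D snoRNPs (FBL, NOP56, NOP58) methylate it and box H/ACA snoRNPs (DKC1, NHP2, GAR1) pseudouridylate it, while the small-subunit processome folds and cleaves its small-subunit portion and separate factors assemble the 60S particle. Many of these genes are known targets of MYC, and growing cancer cells express them strongly. ZFX binds near the start sites of many CpG island genes, and ZNF593 is the human relative of a yeast protein that leaves the nucleus with pre-60S particles.

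The promoters are shown because the known motifs of MYC and of ZFX can be looked for in them. In the RefSeq windows of GRCh38.p14, from 250 bases before to 50 after a start site, 51 of the 60 members had an entry. The E-box CACGTG, the site of MYC and its partners, which reads the same on both strands, stood in 19 of the 51 members (37.3%) and in 8.77% of 27305 genes. The 8-base motif AGGCCTAG, described for ZFX and searched on both strands, stood in 3 members (5.88%) and in 1.22% of genes. Its first 6 bases, AGGCCT, again the same on both strands and part of every 8-base match, stood in 9 members (17.6%) and in 13% of genes. The 3 windows with the 8-base motif come first below, then 4 E-box windows from members that changed in one of the comparisons. Capitals mark the motif, and each stretch is written 5′ to 3′ on the strand of its gene.
WDR75 (chr2:189441367-189441396, plus strand, 96 bases before the start): caccgagtctcAGGCCTAGaagggcccggg
BRIX1 (chr5:34915560-34915589, plus strand, 140 bases before the start): agagctgaaggAGGCCTAGagagccgcgcg
BYSL (chr6:41921271-41921300, plus strand, 217 bases before the start): ggctgagcactCTAGGCCTacatccatgaa
UTP20 (chr12:101280083-101280112, plus strand, 10 bases before the start): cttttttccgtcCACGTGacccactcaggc
UTP4 (chr16:69132621-69132650, plus strand, 16 bases before the start): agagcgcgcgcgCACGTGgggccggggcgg
RRP9 (chr3:51941892-51941921, minus strand, 5 bases before the start): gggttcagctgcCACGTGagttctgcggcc
DDX21 (chr10:68956604-68956633, plus strand, 31 bases before the start): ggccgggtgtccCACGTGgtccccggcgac
A match describes these letters only and is no evidence of binding. The members' windows had a median GC content of 63.7%, against 58.7% over all genes.

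The libraries held 16774179 to 30159260 reads assigned to genes in LN-229 and 16223239 to 24272308 in DKO cells. ZFX counted 55.1, 50.8 and 45.7 CPM (read counts scaled to the library total) in siControl and 12.7, 15.7 and 19.7 in siZFX, a log2 change of -1.66, and it fell by 1.01 in the double knockdown. ZNF593 overlaps an antisense gene over its whole length, so it was read only from both stranded columns summed, with log2 changes of -3.93 in siZNF593 and -3.50 in the double knockdown. DKO cells with the empty vector still held ZFX reads (224 CPM), which do not tell whether protein is made, and ZFX rose by 6.12 on the log2 scale with wtZFX and by 6.40 with ZFX12_13. The third replicate of the double knockdown stood apart from the other 2 (score on the first principal component 78.5, against 33.0 and 34.2). TAF1C, for one, counted 76.6, 76.3 and 33.9 CPM in the 3 libraries, so many results of the double knockdown are also given without replicate 3. The glial marker SOX10 was high in LN-229, while GFAP stayed at 1.9 to 8.8 CPM. NEFL, a neurofilament gene known to be expressed in 293T cells, stood at 63 to 77 CPM in DKO cells. The list of 10 kidney and 293T markers that holds NEFL did not stand higher there as a whole. It summed to 364 to 364.4 CPM in pCMV6 and to 380 to 400 in siControl of LN-229. Markers of blood and vessel cells summed to 1.1 to 3.1 CPM over 10 genes in LN-229, with 4 to 6 of them at 0. Another gene's exons overlap those of 35 members, and reads that meet more than one gene were not counted for either. NOP2 shares 54.4% of its exon bases with another gene and was counted at 0.60 CPM in siControl, so its values are uncertain. NPM1 and RRN3 have near-identical copies in the genome that may take part of their reads.

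The members together took 0.663% to 0.671% of the gene reads in siControl and 1.005% to 1.024% in pCMV6. NPM1, the most abundant nucleolar chaperone, stood highest per transcript length in both lines, at 292 CPM per kilobase in siControl and 463 in pCMV6. In siControl it was followed by NCL, which binds the ribosomal RNA precursor, at 130 CPM per kilobase, and the median member stood at 15.7. In pCMV6 the helicase DDX21 (145 CPM per kilobase) came next and the median was 22.3. The helicase DDX10 of the small-subunit processome was among the members that differed most in level between the lines, at 9.37 CPM in siControl and 91.0 in pCMV6, a difference between 2 lines that was not tested. The summed share was 0.645% to 0.648% in siZFX and 0.600% to 0.625% in siZNF593. The second control set lay lower still, at 0.563% to 0.568%, and the double knockdown at 0.567% to 0.606%. In DKO cells wtZFX libraries held 0.925% to 0.969% and ZFX12_13 libraries 0.921% to 1.013%. In these bulk samples, fewer cells of a kind and less RNA per cell cannot be told apart.

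**Figure D1:**
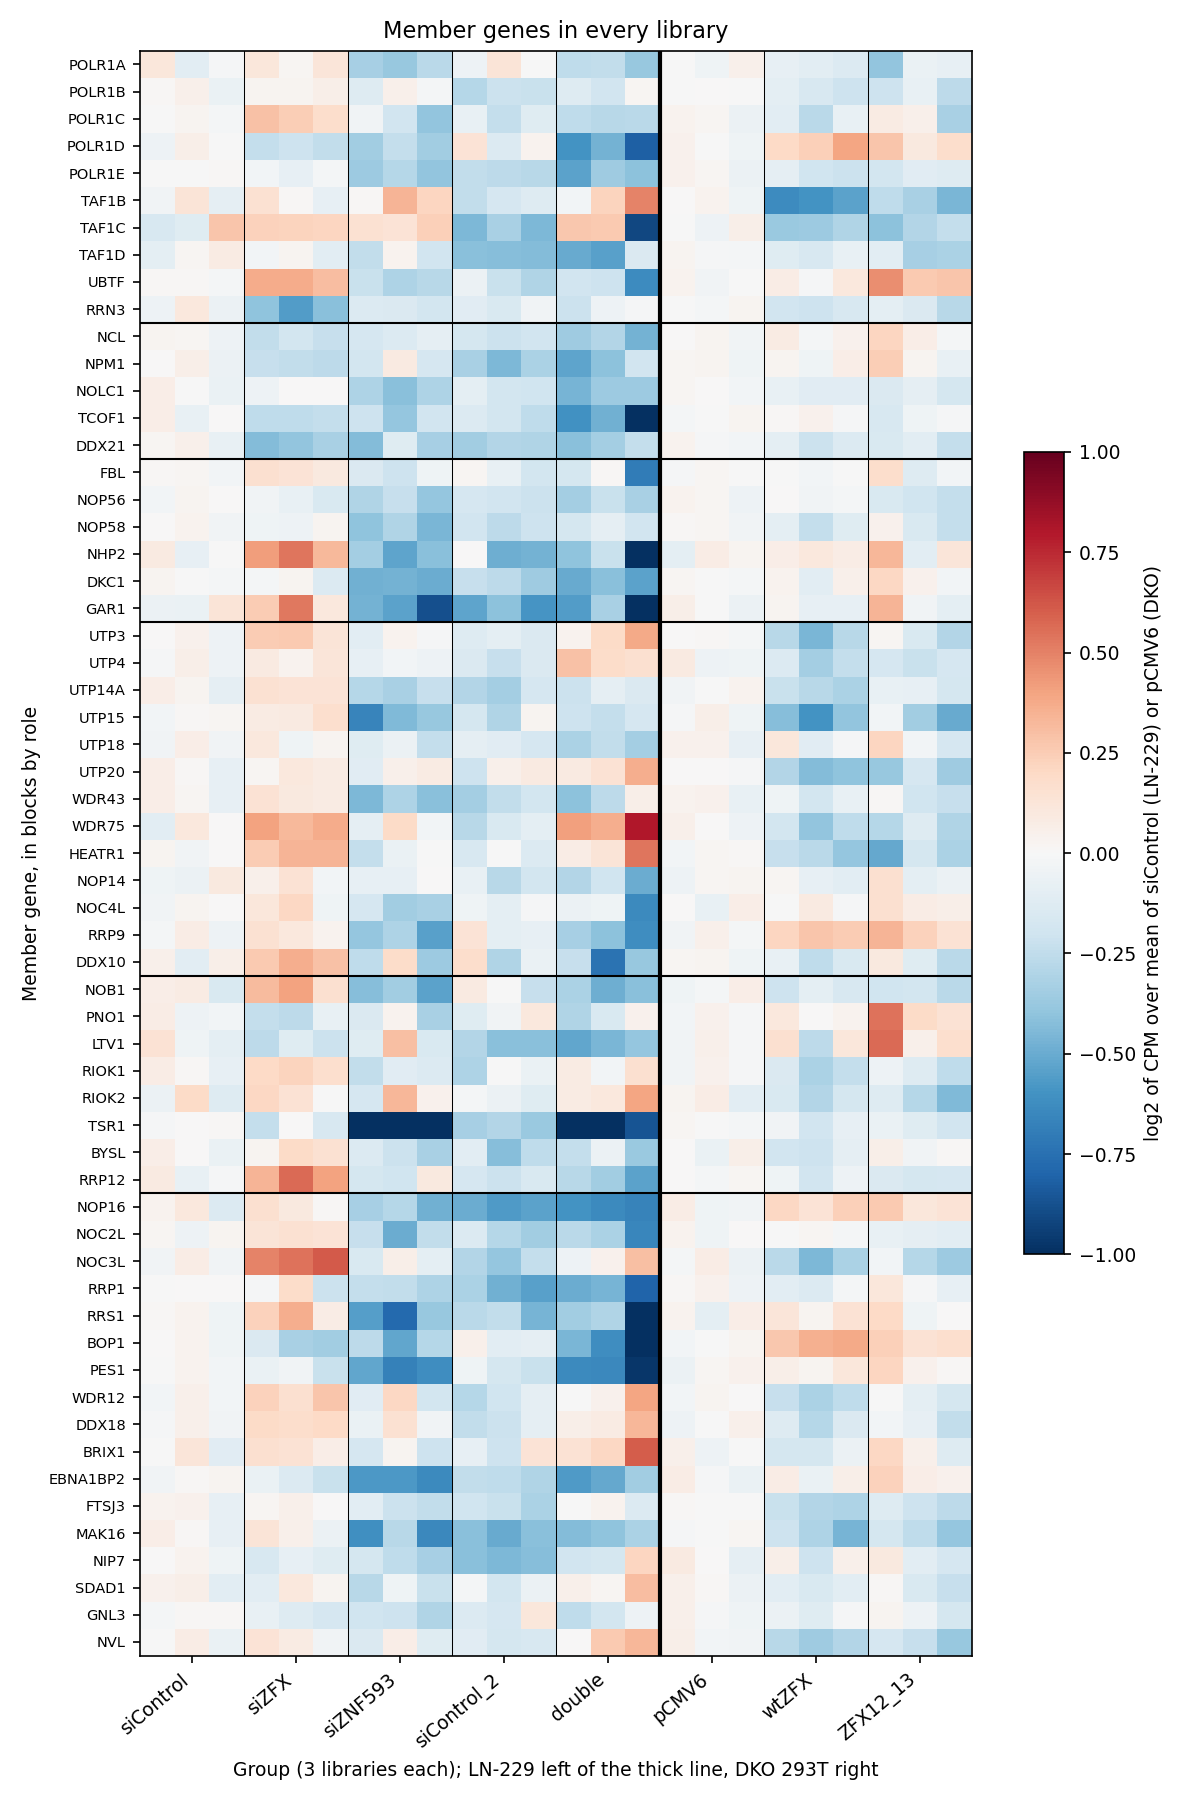
Levels of 59 members in each library, as log2 of CPM over the mean of siControl (LN-229) or pCMV6 (DKO cells), with colours limited to 1 in either direction; members are in the order of their roles and NOP2 is left out for its low counts. The TSR1 row is lowest in the siZNF593 libraries, and replicate 3 of the double knockdown differs in colour from replicates 1 and 2.

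With ZFX knocked down in LN-229, a few members changed, in both directions. The risers were 2 processome genes, 2 pre-40S genes, UBTF and NOC3L, while 3 abundant nucleolar proteins and the initiation factor RRN3 fell. In edgeR's quasi-likelihood test with Benjamini-Hochberg adjustment over all genes, used for all comparisons below, 6 of 60 members rose and 4 fell in siZFX. Over all genes tested the shares called higher and lower were larger than among the members, at 13.8% and 17.1% (30.9% in all). The median member changed by 0.07 on the log2 scale, and the median of all genes by 0.02. The LN-229 groups share an estimate of spread, and without double replicate 3 the counts in siZFX were 13 higher and 7 lower. The shares over all genes are not given for that fit.

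NOC3L, which helps assemble and export the 60S particle, counted 45.1, 48.5 and 44.97 CPM in the siControl libraries and 65.2, 67.3 and 70.7 in siZFX. The groups did not overlap, and the log2 change was 0.55 ± 0.09 (SE, adjusted p = 5.0e-05). UBTF, the factor that holds ribosomal DNA open for RNA polymerase I, counted 111, 110.5 and 108 CPM in siControl and 142, 142 and 136 in siZFX. All siZFX libraries were above all control libraries (log2 0.35 ± 0.09, adjusted p = 0.00436). RRN3, which makes RNA polymerase I able to start, went the other way: it counted 62.7, 69.8 and 62.4 CPM in siControl and 49.1, 43.9 and 48.6 in siZFX. The groups were again apart (-0.46 ± 0.08, adjusted p = 9.0e-05). UBTF and RRN3, which both act at the start of ribosomal RNA synthesis, thus changed in opposite directions. The catalytic subunits POLR1A (0.08) and POLR1B (0.04) did not pass the test.

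Of the nucleolar proteins, DDX21, an RNA helicase that works on the ribosomal RNA precursor, counted 292, 297 and 274 CPM in siControl and 213, 219 and 229.9 in siZFX, without overlap (log2 -0.38, adjusted p = 3.3e-04). NCL fell by 0.22 (adjusted p = 0.00587) and NPM1 by 0.25 (0.0214), the latter no longer called without siControl replicate 1 or 2 or without any siZFX replicate (adjusted p 0.0536 to 0.0862). All 13 processome genes had estimates above 0, with a median of 0.11, and 2 of them rose: WDR75 by 0.36 (adjusted p = 0.00721; 0.0579 without siControl replicate 1) and HEATR1 by 0.31 (0.0141). HEATR1, which also serves ribosomal DNA transcription, was not called without siControl replicate 2 or siZFX replicate 2 or 3 (adjusted p 0.0638 to 0.0733). In pre-40S maturation the export factor RRP12 rose by 0.44 (adjusted p = 5.7e-04) and the nuclease NOB1, which makes the final cut of the small-subunit RNA, by 0.29 (0.0322; up to 0.167, and not called, without siControl replicate 1 or 3 or siZFX replicate 1 or 2). No snoRNP core gene passed the test: FBL, the methyltransferase, stood at 0.13, NOP56 at -0.08 and the pseudouridine synthase DKC1 at -0.04. The PES1, BOP1 and WDR12 complex of 60S assembly stood at -0.11, -0.27 and 0.22, none of them called.

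With ZNF593 knocked down, members of every role fell and none rose. Of 60 members 26 fell and 0 rose, where 14.6% of all genes fell and 12.2% rose (26.8% in all). The fallen members were 4 of 10 RNA polymerase I genes, 2 of 5 nucleolar proteins, 4 of 6 snoRNP proteins, 4 of 13 processome genes, 2 of 8 pre-40S genes and 10 of 18 in 60S assembly. The member median was -0.21, beside 0.02 for all genes. The control set siControl_2 also stood below siControl, with 18 members lower, 0 higher and a median of -0.18. Both single knockdowns were compared with siControl only, so these falls are not shown against siControl_2. At an unadjusted p under 0.05 in edgeR 0 members were higher and 32 lower, and DESeq2 called 0 higher and 27 lower. Beside the members, 6 of 10 glioblastoma and glial markers fell and 1 rose, and their summed level was 5204 to 5269 CPM in siControl and 3401 to 3430 in siZNF593. In siZFX 7 fell and 1 rose (4088 to 4192 CPM), and in the double knockdown 6 fell and 1 rose (3739 to 3779 CPM, against 5400 to 5609 in siControl_2). None of the 10 was at 0 throughout a group, and their part in the members' changes was not tested.

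The deepest fall was that of TSR1, a GTPase-like factor that sits on the pre-40S particle during its last maturation steps; its gene lies on the minus strand of GRCh38 chr17:2322503-2337507. It counted 87.4, 88.1 and 88.7 CPM in siControl and 30.3, 33.1 and 29.6 in siZNF593, so every knockdown library was under every control library. The log2 change was -1.50 ± 0.08 (SE, adjusted p = 3.1e-12). TSR1 shares 20.8% of its exon bases with SRR and SGSM2, and these neighbours were at -0.03 and 0.06 with adjusted p of 0.905 and 0.798. With the stranded columns summed, which keeps reads that opposite-strand genes share, TSR1 changed by -1.23 ± 0.07 (adjusted p = 2.1e-11).

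PES1, the scaffold of the complex that processes the large-subunit precursor, counted 160.2, 165 and 158 CPM in siControl and 112, 100.5 and 105 in siZNF593. The groups were well apart (log2 -0.60 ± 0.08, adjusted p = 8.2e-06). EBNA1BP2, an early 60S assembly factor, counted 112, 116 and 117 CPM against 77.1, 77.3 and 73.8 (-0.60, adjusted p = 9.6e-07). DKC1, the enzyme of the H/ACA snoRNPs, counted 141, 138 and 136 CPM against 98.95, 99.5 and 97.99. It fell in all 3 libraries (-0.49, adjusted p = 6.4e-06), as did its partner GAR1 (-0.62, 0.00659). DKC1 and GAR1 were also lower in siControl_2 than in siControl, GAR1 with a log2 difference of -0.51. Of the C/D proteins NOP58 fell by 0.39 and NOP56 by 0.30, while FBL (-0.13, adjusted p = 0.454) did not pass.

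In 60S assembly MAK16 fell by 0.50 (adjusted p = 5.3e-04), RRS1, which brings in the 5S particle, by 0.56 (0.0157; 0.0534 without siZNF593 replicate 2) and BOP1 by 0.35 (0.0175; 0.0645 without the same library). MAK16 was also lower in siControl_2 than in siControl (-0.45). The largest subunit of RNA polymerase I, POLR1A, counted 128, 110.1 and 117 CPM in siControl and 93.9, 91.1 and 98.2 in siZNF593. These ranges did not overlap (log2 -0.33, adjusted p = 0.00181). POLR1D, shared with RNA polymerase III, fell by 0.31 and POLR1E by 0.35. UBTF fell by 0.27 (adjusted p = 0.0297) but was not called without any of the siControl replicates or without siZNF593 replicate 2 or 3, with adjusted p up to 0.0621. The second-largest subunit POLR1B (-0.03), RRN3 (-0.16) and the abundant NCL (-0.13) and NPM1 (-0.08) did not pass the test. NOB1 fell by 0.44 and the processome protein UTP15 by 0.49.

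Set directly against each other, the 2 single knockdowns differed over all roles. With siZFX 32 of 60 members were higher than with siZNF593 and 1 was lower, where the shares of all genes were 19.8% and 20.7% (40.5% in all). TSR1 differed most, by 1.38 ± 0.08 (SE), followed by GAR1 (0.92), its H/ACA partner NHP2 (0.85), RRS1 (0.79), NOB1 (0.73) and UBTF (0.62). RRN3 was the 1 member lower in siZFX (-0.30, adjusted p = 0.00378), a count that was 2 without double replicate 3. The members higher in siZFX included 5 of 6 snoRNP proteins, 9 of 13 processome genes and 5 of 8 pre-40S genes.

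**Figure D2:**
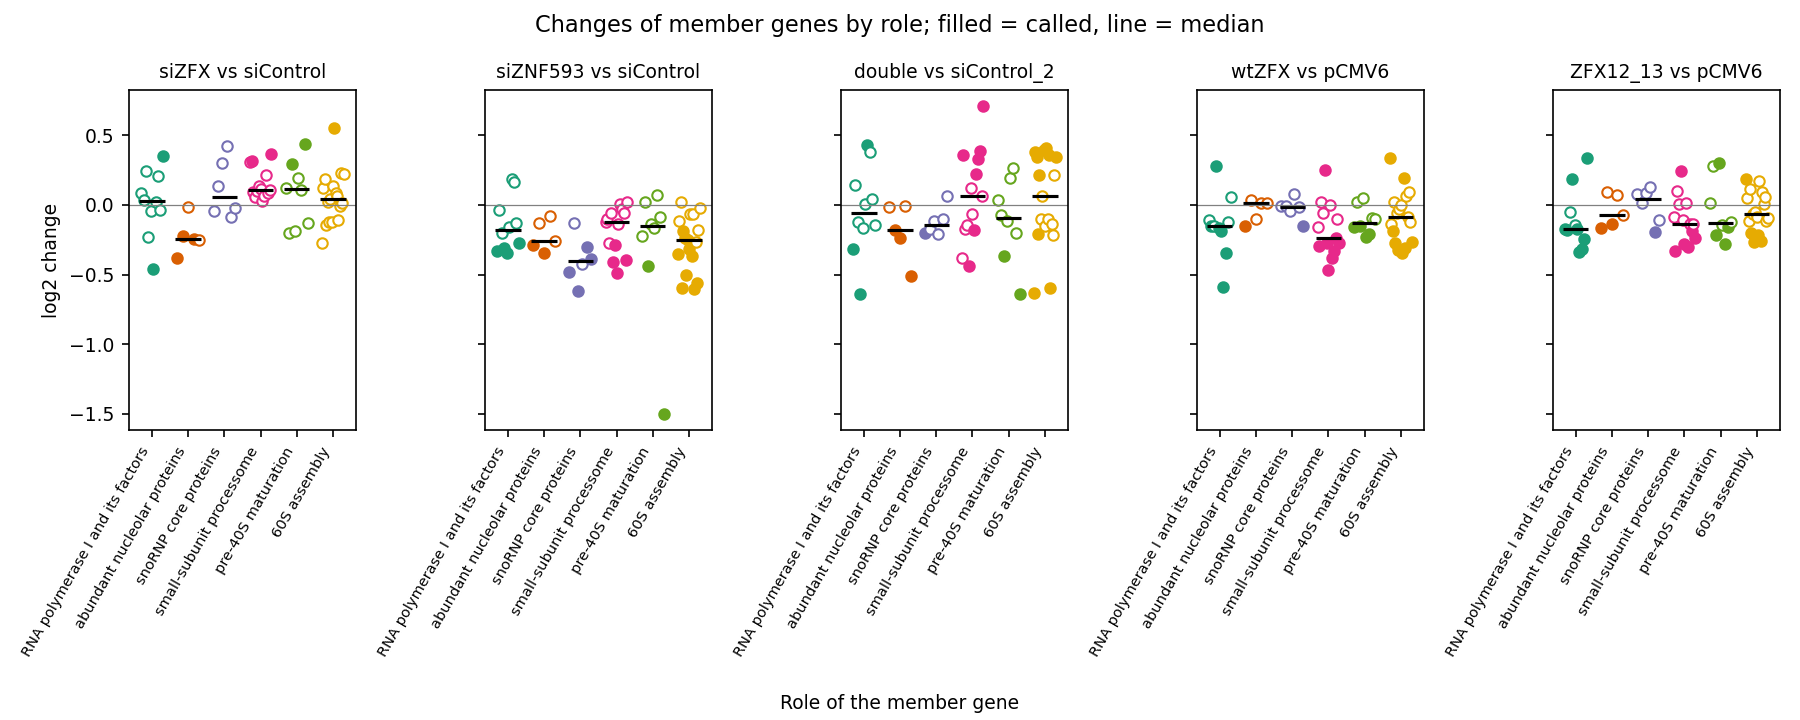
The log2 change of each member against its control, by role, in the siZFX, siZNF593, double knockdown, wtZFX and ZFX12_13 comparisons; filled points passed the test, a line marks the median of the role and NOP2 is left out. In siZNF593 all filled points lie below 0, and in the double knockdown filled points lie on both sides.

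With both factors knocked down as many members rose as fell, in shares near those of all genes. Against siControl_2, 13 of 60 rose and 13 fell, where 17.6% of all genes rose and 20.6% fell (38.2% in all). Most of the risers were processome (5) and 60S assembly genes (7), and the fallers took in all 6 roles. The member median was -0.09, beside 0.01 for all genes. Without double replicate 3, 13 rose and 11 fell, with a median of -0.03, and without siControl_2 replicate 1 the fallers numbered 7.

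The processome protein WDR75, whose gene lies on the plus strand at GRCh38 chr2:189441433-189475565, rose most. It counted 59.3, 64.6 and 67.1 CPM in siControl_2 and 95.3, 92.3 and 125 in the double knockdown. All knockdown libraries were above all controls, with the third highest (log2 0.71 ± 0.10, adjusted p = 6.9e-06; 0.57 without it). UTP4, of the same early processome complex, counted 108, 102 and 107 CPM against 146, 135 and 133. Here the libraries of each group lay close together (0.39 ± 0.06, adjusted p = 5.4e-05; 0.42 without replicate 3). TAF1B, the selectivity factor subunit that resembles TFIIB, counted 28.5, 30.2 and 30.9 CPM against 33.2, 39.5 and 47.8, a rise of 0.43 (adjusted p = 0.00545) that was 0.29 without replicate 3. NOC3L rose by 0.41 (0.31 without it), NIP7, a late nucleolar 60S factor, by 0.39 (0.25), and BRIX1, needed for large-subunit processing, by 0.38 (0.23), the last not called without siControl_2 replicate 2 (adjusted p = 0.0644). BRIX1 and WDR75 are 2 of the 3 members with the 8-base motif; the third, the pre-40S factor BYSL, was not called (0.04). HEATR1 (0.36; 0.20 without replicate 3), the ATPase NVL (0.36; 0.30), WDR12 (0.35; 0.22) and UTP20 (0.22, adjusted p = 0.0495; 0.14) rose as well. WDR12 was not called without siControl_2 replicate 1 (adjusted p = 0.0501), nor UTP20 without siControl_2 replicate 1 or 2 or double replicate 3 (0.0633 to 0.254).

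Among those that fell, POLR1D counted 68.4, 56.6 and 63.8 CPM in siControl_2 and 41.1, 44.8 and 35.2 in the double knockdown, without overlap (log2 -0.64 ± 0.09, adjusted p = 6.0e-06, and -0.54 without replicate 3). TSR1 counted 69.9, 71.9 and 68.3 CPM against 42.8, 43.7 and 48.4 (-0.64, adjusted p = 1.2e-06, and -0.69 without replicate 3) with all 3 libraries close together and below every control. Its overlapping neighbours were called too (SRR -0.55, adjusted p = 0.00674; SGSM2 0.59, 0.00261), and with the stranded columns summed TSR1 stood at -0.59 (1.1e-06). BOP1, the partner of PES1, counted 101, 90.3 and 91.3 CPM against 71.1, 63.4 and 48.1. The third knockdown library was the lowest for BOP1 (-0.63; -0.48 without it), as it was for PES1 (-0.60; -0.49). TCOF1, a nucleolar protein that works with UBTF and is mutated in Treacher Collins syndrome, fell by 0.51 (adjusted p = 6.4e-04; -0.34 without replicate 3), and the U3 snoRNP protein RRP9 by 0.44 (-0.35). POLR1A (-0.32; -0.27 without replicate 3) and NOB1 (-0.37; -0.36; adjusted p = 0.0632 without siControl_2 replicate 1) fell too, whereas UBTF, RRN3, FBL and NOP56 were not called.

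**Figure D3:**
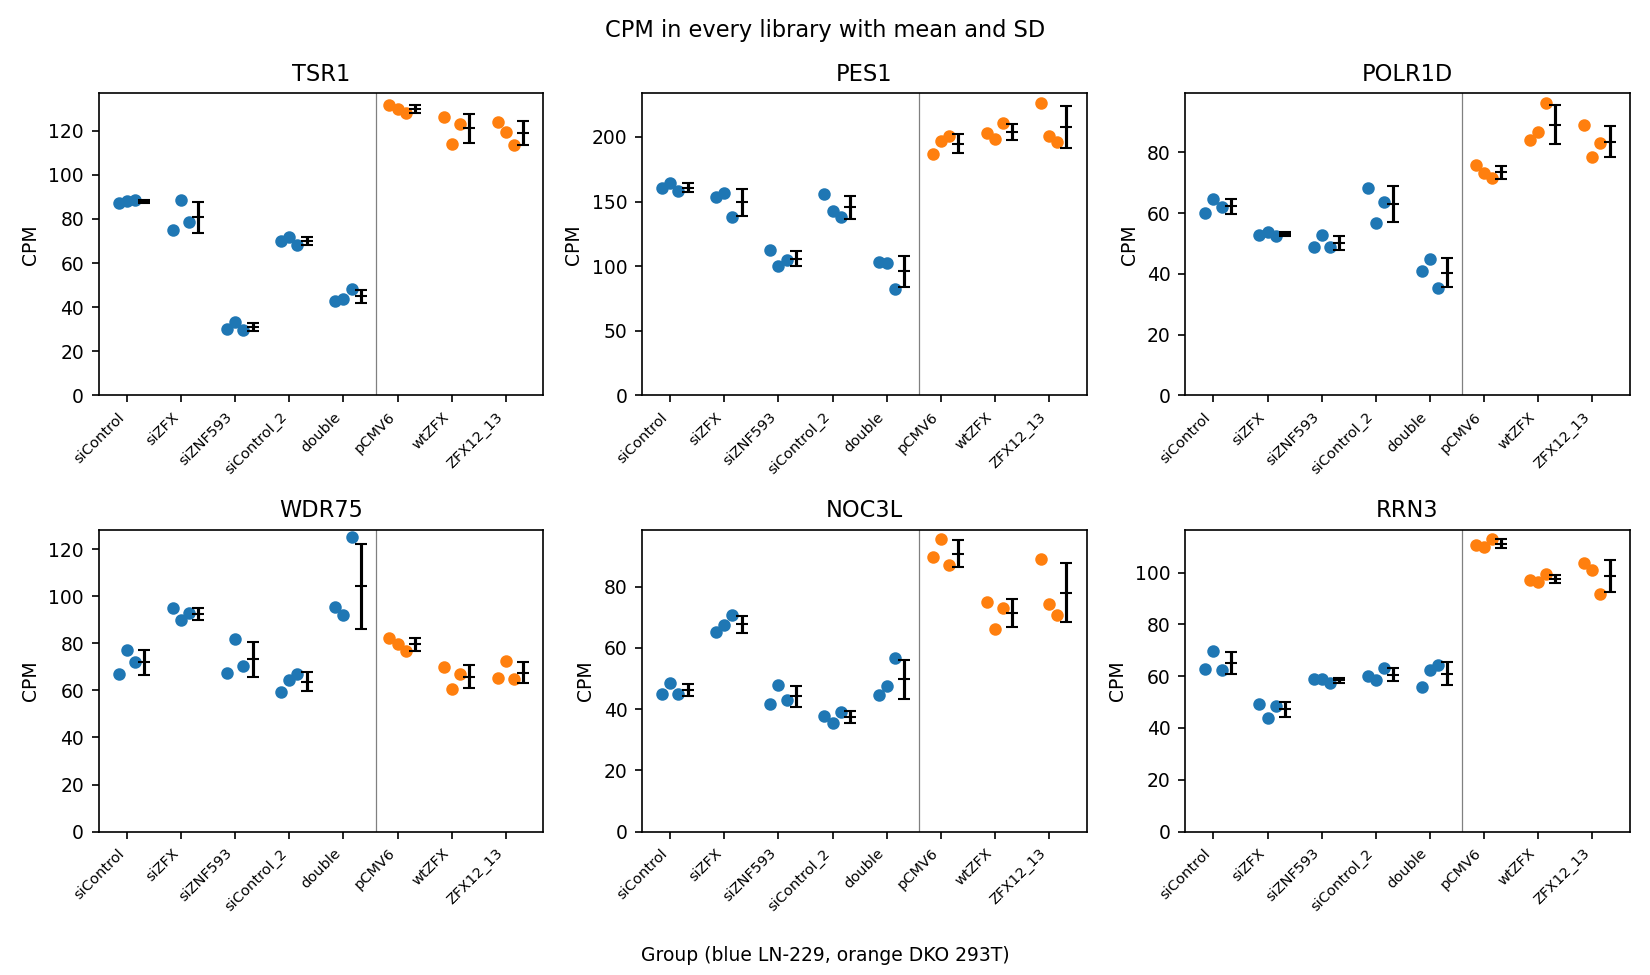
CPM of TSR1, PES1, POLR1D, WDR75, NOC3L and RRN3 in every library by group, with the mean and SD of each group of 3, on axes that start at 0. TSR1 is lowest in siZNF593, WDR75 is highest in the double knockdown among LN-229 groups, and POLR1D is above pCMV6 in all wtZFX libraries.

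The members also differed between the control sets, although both carry the same treatment label. In siControl_2, 18 of 60 were lower than in siControl and 0 higher, where 4.88% of all genes were lower and 5.43% higher (10.3% in all). In edgeR 0 were higher at an unadjusted p under 0.05 too, and DESeq2 called 0 higher and 20 lower. The count lay between 9 and 11 when any of the 6 control libraries was left out, and it was 31 without double replicate 3, which shares the estimate of spread. The shares over all genes are not given for these fits. NPM1 differed by -0.36 (adjusted p = 0.00384), NIP7 by -0.43 (0.00235) and TSR1 by -0.33 on the log2 scale. With the stranded columns summed TSR1 was at -0.198 and not called (adjusted p = 0.086). The 60S factors NOP16 (-0.54), RRP1 (-0.44) and MAK16 (-0.45) were among the largest differences. GAR1 (-0.51), POLR1B (-0.24) and NCL (-0.19) were each not called without any of the 6 control libraries (adjusted p 0.0543 to 0.146).

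The members' calls in the double knockdown differed with the control set used. Against siControl, 4 members rose and 30 fell, with a median of -0.28. Of all 17684 genes, 3315 rose and 3884 fell there, beside 3117 and 3636 against siControl_2. Called against both sets were 4 risers (UTP4, WDR75, HEATR1 and BRIX1) and 13 fallers (POLR1A, POLR1D, NCL, NOLC1, TCOF1, DKC1, UTP18, RRP9, NOB1, TSR1, BOP1, PES1 and EBNA1BP2). Against siControl_2, NCL was not called without siControl_2 replicate 1 or 3 or double replicate 3 (adjusted p up to 0.0658), nor DKC1 without siControl_2 replicate 1 or double replicate 1 (up to 0.106). Against siControl, TSR1 stood at -0.97, PES1 at -0.74, TCOF1 at -0.70, BOP1 at -0.68, POLR1D at -0.62 and WDR75 at 0.53. NOC3L (0.11, adjusted p = 0.38), TAF1B (0.24, 0.097) and NIP7 (-0.04) were not called there. With upper-quartile scaling the double knockdown gave 17 risers and 8 fallers against siControl_2 (all genes, 3805 and 3134). With offsets for GC content and length it gave 12 and 19 (all genes, 3284 and 4020). Under these offsets RRP9 (-0.22) and UTP20 (0.11) were not called in the double knockdown.

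**Figure D4:**
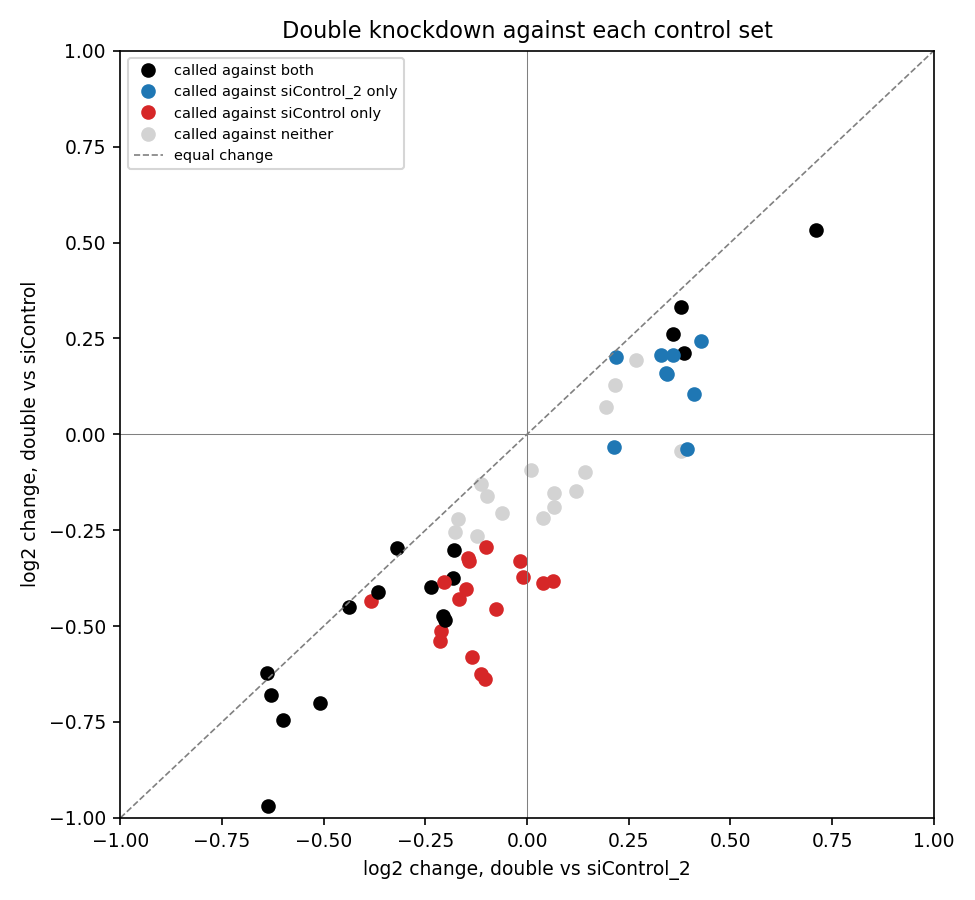
The log2 change of each member in the double knockdown against siControl_2 (x axis) and against siControl (y axis); both axes share the double knockdown libraries. Most points lie below the line of equal values, and TSR1, PES1, POLR1D, BOP1 and TCOF1 are low on both axes.

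The double knockdown was also compared with each single one, as a difference of log2 changes each taken against its own control set. Compared with siZNF593, 19 members were higher and 0 lower (all genes, 7.97% and 8.60%, 16.6% together); 1 was lower at an unadjusted p under 0.05 in edgeR, and DESeq2 called 0 lower. TSR1 differed by 0.87, so its fall in the double knockdown was smaller than in siZNF593. WDR75 (0.69), NIP7 (0.65), MAK16 (0.57) and NOC3L (0.47) were higher as well. With siControl in place of siControl_2, TSR1 and WDR75 were still called, but NIP7, MAK16 and NOC3L were not. Compared with siZFX, 4 members were higher and 9 lower (8.76% and 8.97%, 17.7% together): RRN3 by 0.47 and DDX21 by 0.37, both of which fell in siZFX and were not called in the double knockdown, against lower NOB1 (-0.66), RRP12 (-0.64), TSR1 (-0.51), PES1 (-0.49) and UBTF (-0.49). With siControl in place of siControl_2 these counts were 10 higher and 10 lower beside siZNF593, and 1 higher and 34 lower beside siZFX, where DDX21 was no longer called. The counts over all 17684 genes grew as well. Beside siZNF593 they went from 1409 and 1520 to 2618 and 2647, and beside siZFX from 1550 and 1587 to 3006 and 3103. Beside siZNF593 the 19 was 12 without siControl replicate 2, 11 without siZNF593 replicate 1 and 27 without double replicate 3. Beside siZFX the 4 was 8 without double replicate 1. Against the sum of both single changes, 6 members were higher and 0 lower in the double knockdown (3.85% and 1.81% of all genes, 5.65% together); here too 1 was lower at an unadjusted p under 0.05 in edgeR, and DESeq2 called 0 lower. These were TSR1, NIP7, DDX21, RRN3, EBNA1BP2 and NOP58, and they numbered 2 without siControl replicate 2. With siControl in place of siControl_2, 3 members were higher than the sum and 3 lower, and with the mean of both control sets 2 and 10. Over all 17684 genes these counts were 1607 and 1056, and 2122 and 1682, beside 680 and 320 with siControl_2.

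Returning wild-type ZFX to DKO cells lowered more members than it raised. Of 60 members 4 rose and 24 fell, where 23.2% of all genes rose and 19.2% fell (42.3% in all). The fallers were led by the processome (7 of 13, with a median of -0.24 over the role) and by RNA polymerase I factors (5 of 10), with 4 of 8 pre-40S and 6 of 18 60S assembly genes. Among abundant members, NCL (0.04), NPM1 (0.02), FBL (-0.01), NOP56 (-0.02) and DKC1 (-0.01) were not called. DDX21, which came next after NPM1 per transcript length in pCMV6, fell. The member median was -0.11, beside -0.02 for all genes. Of 10 kidney and 293T markers, 9 were tested, and 7 rose and 1 fell (sum 364 to 364.4 CPM in pCMV6, 408 to 436 in wtZFX). Of 10 blood and vessel markers, 3 were tested and 2 rose, from a sum of 7.42 to 8.49 CPM to 13.01 to 13.6, with 3 of the 10 at 0 in all pCMV6 libraries and 0 of them in wtZFX. The part of these markers in the members' changes was not tested.

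TAF1B counted 44.2, 45.2 and 42.6 CPM in pCMV6 and 28.5, 29.01 and 30.3 in wtZFX. The groups were far apart, and the log2 change of -0.59 ± 0.07 (SE, adjusted p = 1.2e-07) was the largest among the members. Its partner TAF1C fell by 0.35 (adjusted p = 1.3e-05). UTP15 counted 56.95, 59.5 and 55.5 CPM against 42.6, 37.9 and 43.6 (-0.47, 1.6e-04), and UTP20, a long scaffold protein of the processome, 113, 113 and 112 against 91.7, 83.1 and 84.8 (-0.38, 9.4e-06). Neither pair of groups overlapped. NOC3L (-0.35), MAK16 (-0.33), UTP3 (-0.33), NVL (-0.31), HEATR1 (-0.30), WDR75 (-0.28), WDR12 (-0.26), UTP4 (-0.24) and RRN3 (-0.19) fell as well.

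The members that rose were few. BOP1 counted 122, 124 and 127 CPM in pCMV6 and 149, 159 and 162 in wtZFX, a rise of 0.34 ± 0.05 (adjusted p = 6.3e-06) with no overlap. POLR1D counted 75.7, 73.2 and 71.4 against 84.1, 86.7 and 96.3 CPM (0.28, adjusted p = 5.0e-04). Both are higher in every wtZFX library than in any pCMV6 library. RRP9 rose by 0.25 (adjusted p = 0.0035) and NOP16 by 0.19 (0.0296), the latter not called without wtZFX replicate 1 or 3 or pCMV6 replicate 2 or 3 (up to 0.112). The catalytic subunit POLR1A (-0.11), UBTF (0.06) and PES1 (0.07) did not pass the test. POLR1B fell by 0.15 (adjusted p = 0.0214; up to 0.120, and not called, without wtZFX replicate 2 or 3 or any pCMV6 replicate). With offsets for GC content and length 3 of the 4 risers were not called, BOP1 at -0.09, RRP9 at 0.07 and NOP16 at 0.14, and the falls of RRN3 (-0.04) and POLR1B (-0.09) were not called either.

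With ZFX12_13, too, more members fell than rose, and UBTF rose. Of 60 members 5 rose and 21 fell against pCMV6, where 20.9% of all genes rose and 15.7% fell (36.6% in all). UBTF counted 159, 152 and 154 CPM in pCMV6, 163, 154 and 166 in wtZFX and 213, 185 and 188 in ZFX12_13. All ZFX12_13 libraries lay above all others, by 0.34 ± 0.06 over pCMV6 (adjusted p = 3.2e-05) and by 0.28 over wtZFX (5.7e-04). PNO1, a pre-40S RNA-binding factor, rose by 0.30 (adjusted p 0.0621 without ZFX12_13 replicate 1), RRP9 by 0.24, POLR1D by 0.19 and BOP1 by 0.18. With GC and length offsets BOP1 was instead called lower (-0.19, adjusted p = 5.4e-04), and RRP9 (0.07) and RIOK2 (-0.14) were not called. The falls of UTP15 (-0.15) and RRN3 (-0.06) were not called under these offsets either. TAF1B fell by 0.34, HEATR1 by 0.33, TAF1C by 0.32, UTP20 by 0.30, the kinase RIOK2 by 0.28 and NOP56 by 0.19. Of the marker lists, 7 of 9 kidney and 293T markers (sum 415 to 424 CPM) and 2 of 3 blood and vessel markers (11.5 to 14.4 CPM, 1 of 10 genes at 0) rose, and their part was not tested. Both POLR1A (-0.17) and POLR1B (-0.18) fell as well. POLR1D was not called without pCMV6 replicate 2 or 3 (adjusted p up to 0.0831), POLR1A without ZFX12_13 replicate 1 or any pCMV6 replicate (up to 0.157) and POLR1B without ZFX12_13 replicate 3 (0.0508).

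Compared directly, ZFX12_13 and wtZFX differed in 8 of 60 members. ZFX12_13 was higher in 6 and lower in 2, where 9.73% of all genes were higher and 10.6% lower (20.4% in all). Besides UBTF, TAF1B was higher by 0.25 (adjusted p = 0.0127; 0.0594 without wtZFX replicate 1): it counted 36.95, 35.2 and 31.9 CPM with ZFX12_13, between pCMV6 and wtZFX. NOP56 was lower, at -0.18 (adjusted p = 0.00797). PNO1, WDR12, BYSL and UTP14A (higher by 0.16 to 0.26) and BOP1 (-0.15) were each not called without 3 to 5 of the 6 libraries in turn, with adjusted p up to 0.248. The count of 6 higher was 2 to 8, and that of 2 lower 1 to 4, when wtZFX or ZFX12_13 libraries were left out in turn.

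The double knockdown and the return of ZFX were measured in different lines with no shared libraries, so their member changes can be set side by side. Called in both were 15 members, 57.7% of the 26 in the double knockdown and 53.6% of the 28 with wtZFX. Of these 14 went in opposite directions. NVL, HEATR1, TAF1B, DDX18, WDR75, WDR12, UTP3, NOC3L, UTP20, UTP4 and FTSJ3 rose in the double knockdown and fell with wtZFX, and RRP9, BOP1 and POLR1D fell in the double knockdown and rose with wtZFX. NOB1, the 1 exception, was lower in both, though with wtZFX it was not called without wtZFX replicate 1 or 3 or pCMV6 replicate 2 or 3 (adjusted p up to 0.156). Across the 60 members the changes had a Pearson correlation of -0.69 and a Spearman correlation of -0.70, given as a description since genes are not independent replicates. Over all 15973 genes tested in both lines, 85.5% of those called in both were opposite, so the opposition is not particular to the members. Without double replicate 3, 14 of 15 were opposite (Pearson -0.63). With the double knockdown set against siControl, 7 of 11 were opposite (-0.68).

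GC content of the transcripts moved with both changes. Over the 60 members its Pearson correlation was -0.54 with the double knockdown's change and 0.48 with that of wtZFX, and 0.06 with that of siZFX. With the change in siZNF593 it was -0.19 (Spearman -0.38). Split at the median GC of 47.2%, the 30 members of lower GC gave 11 risers and 1 faller in the double knockdown and the 30 of higher GC 2 and 12. With wtZFX these were 0 and 18 for lower GC, and 4 and 6 for higher GC. In siZNF593 they were 0 and 7 for lower GC, and 0 and 19 for higher GC. With offsets for GC content and length, 12 of 18 members called in both the double knockdown and wtZFX were opposite (Pearson -0.59). For the single knockdowns, siZFX and wtZFX gave 4 opposite members (HEATR1, WDR75, NOC3L and NOB1) and 2 that fell in both (DDX21 and RRN3), 66.7% opposite, beside 80.98% of all 2950 genes called in both. The opposite ones were 2 without siControl replicate 1 or siZFX replicate 2, and 10 without double replicate 3. Without double replicate 3 the genes called in both numbered 3750, of which 2969 were opposite. The siZNF593 and wtZFX changes gave 4 opposite (RRP9, NOP16, BOP1 and POLR1D) and 8 in the same direction, 33.3% opposite, beside 58.02% of all 2227 genes called in both.

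**Figure D5:**
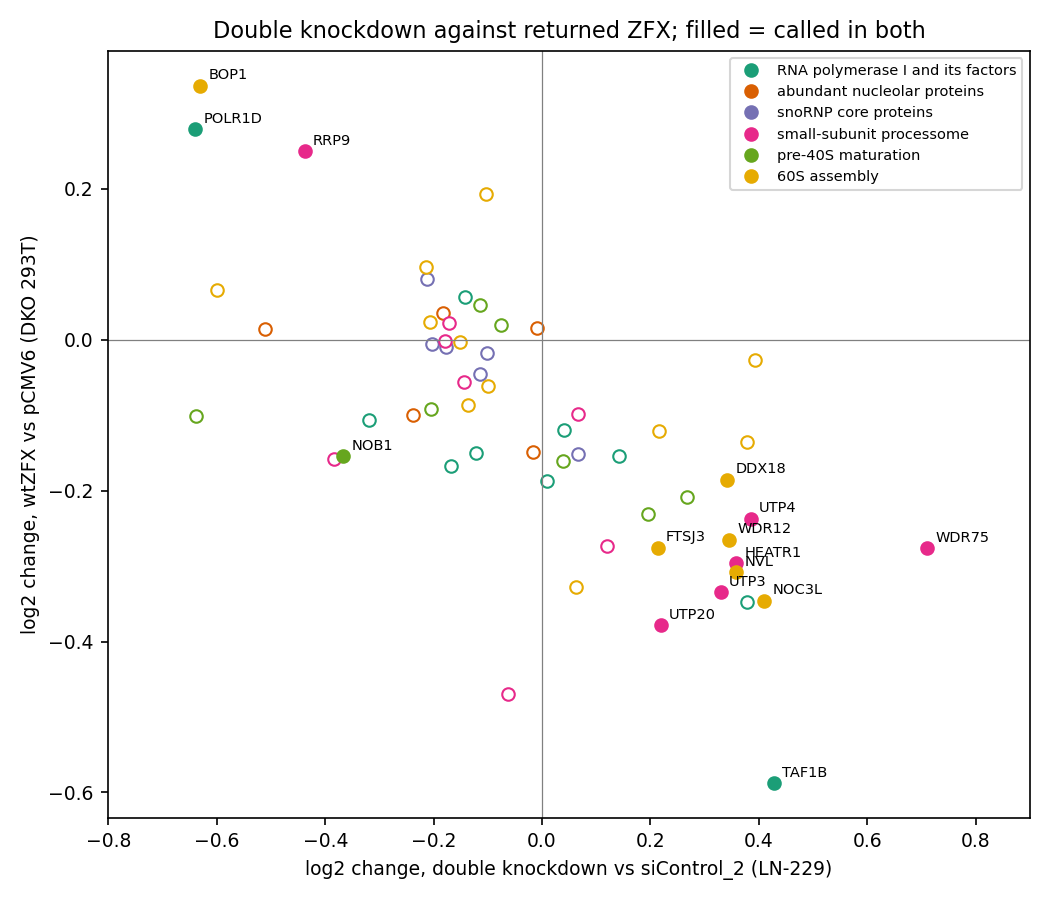
The log2 change of each member in the double knockdown against siControl_2 (x axis) and with wtZFX against pCMV6 (y axis), NOP2 left out. Members called in both fill the upper left (BOP1, POLR1D, RRP9) and lower right (such as WDR75, TAF1B and NOC3L), with NOB1 in the lower left.

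Other genes of the pathway, 91 genes on a list of further ribosome biogenesis genes written from general knowledge, were tested in the same fits. In siZNF593, 34 of 91 fell and 4 rose, among them SHQ1, which assembles H/ACA snoRNPs (-1.18), TMA16 (-1.07) and the nucleolar protein MYBBP1A (-1.06), with NOP53 higher (0.64). In siZFX 19 rose and 6 fell: the 60S export adaptor NMD3 (0.50), the helicase DDX27 (0.49) and DCAF13 (0.48) rose, and TRMT112, an activator of methyltransferases, fell (-0.93). The double knockdown gave 22 risers, such as UTP23 (0.65) and ESF1 (0.60), and 18 fallers, such as MYBBP1A (-1.16) and AATF (-0.88). With wtZFX 3 rose, AATF among them (0.41), and 35 fell, led by the giant ATPase MDN1 (-0.47), TAF1A, another selectivity factor subunit (-0.41), and UTP23 (-0.41). With ZFX12_13 3 rose and 25 fell. In siControl_2, 9 of the list were lower than in siControl and 0 higher. Of all genes, 12.2% were called higher and 14.6% lower in siZNF593, and 13.8% and 17.1% in siZFX. The same shares were 17.6% and 20.6% in the double knockdown, and 23.2% and 19.2% with wtZFX. They were 20.9% and 15.7% with ZFX12_13, and 5.43% and 4.88% in siControl_2.

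MYC, the best known activator of these genes, counted 31.02, 32.04 and 33.6 CPM in siControl, 40.8, 43.1 and 40.9 in siZFX and 20.5, 20.01 and 18.3 in siZNF593. The 3 groups did not overlap: MYC rose by 0.37 (adjusted p = 0.0104) in siZFX and fell by 0.71 (3.2e-05) in siZNF593. In the double knockdown it was not called (-0.18, adjusted p = 0.218), nor with wtZFX (-0.02) or ZFX12_13 (-0.13). Genes of proliferation moved beside the members too: of 20 listed, 13 fell in siZFX, 17 in siZNF593, 13 in the double knockdown, 8 with wtZFX and 6 with ZFX12_13. In the same order, 17.1%, 14.6%, 20.6%, 19.2% and 15.7% of all genes fell. For the proliferation genes, levels were also summed. Their summed level was 5056 to 5304 CPM in siControl, 4298 to 4339 in siZFX and 3333 to 3543 in siZNF593. It was 4735 to 4858 in siControl_2 and 3737 to 4043 in the double knockdown, and in DKO cells 5094 to 5223 with pCMV6, 4751 to 4820 with wtZFX and 4619 to 4827 with ZFX12_13. The part of MYC and of the proliferation genes in the members' changes was not tested.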

How the data were processed

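Poly(A) or other RNA selection is not given in the sources used here; libraries were made with the NEBNext Ultra II kit, per the labels' protocols. The authors deposited read counts per gene, in the layout of STAR gene counts, and STAR, HTSeq and DESeq2 with the GRCh38 build are named without versions, per the submitters' processing notes. The unstranded column was used, because reads fell evenly on both strands. All 58721 gene IDs matched GENCODE 29, which gave symbols and coordinates. Lines that name no gene were left out of library sizes.

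The 15 LN-229 and 9 DKO libraries had separate edgeR 4.0.16 fits in R 4.3.3, with robust quasi-likelihood, TMM factors, filterByExpr and a coefficient for each group. A gene was called where its Benjamini-Hochberg p, adjusted across every tested gene, was under 0.05. Standard errors are log2 changes divided by the root of the F statistic, without sign, and CPM use TMM-scaled totals. Biological variation (BCV) came to 11.2% for LN-229 and 5.26% for the DKO line. Python 3.11.15 read promoters and drew figures.

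The members and lists were chosen with earlier results of these data known. Named members are up to 6 called in each direction per comparison with the largest change, and a core set (POLR1A, POLR1B, UBTF, RRN3, NCL, NPM1, FBL, NOP56, DKC1, UTP20, HEATR1, NOB1, BYSL, BOP1, PES1, WDR12 and NVL), of which the text describes the larger part; other genes in lists of called members were named after their values were seen. Alternatives were other scalings, filters, tools, control sets, strand handling, a replicate block and each library left out in turn. GC and length offsets, and all LN-229 comparisons without double replicate 3, were added after seeing the data. The models were tested on simulated counts with known changes.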

Additional observations from a re-analysis of the deposited data

Results flagged for a closer look

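For 6 members the log2 change in the double knockdown differed from the sum of the 2 single knockdowns, by edgeR's quasi-likelihood test of the difference itself with Benjamini-Hochberg adjustment over all genes. All 6 were higher than the sum, but this direction depends on the control set: with siControl for the double knockdown 3 members were higher than the sum and 3 lower, and with the mean of both control sets 2 and 10. TSR1 differed by 0.99 ± 0.16 (SE, adjusted p = 3.1e-04), NIP7 by 0.77 ± 0.18 (0.0104), DDX21 by 0.66 ± 0.15 (0.0079), RRN3 by 0.62 ± 0.16 (0.0189), EBNA1BP2 by 0.53 ± 0.14 (0.0255) and NOP58 by 0.47 ± 0.13 (0.0275). The double knockdown has its own control set, and with siControl in its place NIP7, EBNA1BP2 and NOP58 were not called (adjusted p 0.0637 to 0.0839). With the mean of both control sets DDX21 (0.194) was not called either, while TSR1 (0.66 and 0.50) and RRN3 (0.52 and 0.47) passed with both choices. Without double replicate 3 all 6 were still called, from 0.48 (EBNA1BP2) to 0.95 (TSR1). RRN3 was not called without siControl replicate 2 (adjusted p = 0.111), nor was NIP7 (0.0523). NOP58 was not called without siControl replicate 1 or 2 (up to 0.0884), nor EBNA1BP2 without any siControl replicate or siZFX replicate 3 (up to 0.0988). The knockdown of ZFX was also less deep in the double knockdown (log2 -1.01) than in siZFX (-1.66), and its part in these differences was not tested.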

How the results depend on the processing

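Counts of members are given as higher, then lower, by edgeR unless another tool is named, and for changes not explained by fewer samples or a stricter rule the cause was not tested. Asking also for a 1.5-fold change left 0 and 0 in siZFX, 4 lower in siZNF593, 1 and 4 in the double knockdown, 0 lower in siControl_2, 8 and 0 for siZFX against siZNF593, 0 and 3 for double against siZFX, 3 higher for double against siZNF593, 0 and 1 with wtZFX, and 0 and 0 for ZFX12_13 against either group. Fitting only the groups compared gave 17 and 12 in siZFX, 8 and 7 in the double knockdown, 33 lower in siControl_2, 2 lower for siZFX against siZNF593, 12 higher for double against siZNF593, 2 and 1 for ZFX12_13 against wtZFX, and 11 and 8 members opposite between siZFX and wtZFX or ZFX12_13. Over all genes these fits called 3775 and 4224 of 15975 in siZFX and 2259 and 2503 of 16318 in the double knockdown. In siControl_2 1869 of 15948 genes were lower. For siZFX against siZNF593 4248 of 15990 were lower, and for double against siZNF593 1130 of 17369 were higher. ZFX12_13 against wtZFX gave 1465 and 1710 of 18594. Between siZFX and wtZFX 3691 of 4848 genes called in both were opposite. GC and length offsets gave 10 and 8 in siZFX, 3 lower for siZFX against siZNF593, 14 lower for double against siZFX, 1 lower than the sum, 8 higher for ZFX12_13 against pCMV6, 1 lower for it against wtZFX, 9 opposite members for siZFX with either construct and 2 for siZNF593 with wtZFX. With these offsets 3078 and 3462 of all 17684 genes were called in siZFX. For siZFX against siZNF593 4157 were lower, for double against siZFX 2065, and 723 were lower than the sum. Of 19376 genes in DKO cells, 4450 were higher for ZFX12_13 against pCMV6 and 2226 lower for it against wtZFX. Under these offsets BOP1 stood at -0.087 with wtZFX and was not called. It was called lower with ZFX12_13 (-0.19), and PES1 was called lower with wtZFX (-0.13).

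With siControl as the control of the double knockdown there were 4 and 30 calls, 1 and 34 against siZFX, 10 and 10 against siZNF593, 3 and 3 against the sum, and 7 opposite members with each construct. NIP7 then stood at -0.038. With the mean of both control sets, 26 fell (all genes, 4064), with 1 and 34 against siZFX, 10 and 10 against siZNF593 and 2 and 10 against the sum. Under both choices NCL stood at -0.15 beside siZFX and NPM1 at -0.29 beside siZNF593. Upper-quartile factors gave 8 lower in the double knockdown, and DESeq2 and no filter each gave 3 higher for ZFX12_13 against wtZFX (all genes, 1586 and 1564).

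Leaving out each library in turn gave 4 to 13 and 3 to 7 in siZFX, 0 to 0 and 21 to 33 in siZNF593, 11 to 15 and 7 to 12 in the double knockdown, 0 to 0 and 9 to 31 in siControl_2, and 28 to 40 and 1 to 2 for siZFX against siZNF593. It gave 4 to 8 and 7 to 11 for double against siZFX, 11 to 27 and 0 to 1 against siZNF593, and 2 to 9 and 0 to 1 against the sum. In DKO cells it gave 3 to 4 and 17 to 21 with wtZFX, 4 to 7 and 15 to 29 with ZFX12_13, and 2 to 8 and 1 to 4 between them. Counts over all genes are not given for these fits. Opposite members numbered 12 to 15 (double, wtZFX), 9 to 13 (double, ZFX12_13), 2 to 10 (siZFX, wtZFX), 3 to 8 (siZFX, ZFX12_13) and 3 to 4 (siZNF593, wtZFX). Of the values of named members with a library left out, 1916 stayed on their side of the threshold, 137 lost the call, 26 gained it and 0 called ones changed sign (signs of uncalled values were not counted).

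Same-numbered replicates deviated together with correlations from -0.09 to 0.06, and the own number matched best in 10 of 24 cases. With 3 libraries a group this check cannot tell whether same-numbered samples share more than a number. With the replicate block, siZFX gave 7 and 5, siZNF593 0 and 28, and wtZFX 4 and 25, and no count of members moved by over 1.5 times. Whole-gene counts at these depths limit mainly NOP2, and counting error alone does not cover the spread between libraries.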
